A study of Mus musculus with 6 samples.

Results

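The tumor necrosis factor (TNF) superfamily was examined in lung RNA of GRdim/dim and GR+/+ mice after hemorrhagic shock (HS). Members were taken by gene symbol: every protein-coding gene named *Tnfsf* or *Tnfrsf* with a number, together with *Tnf*, *Lta*, *Ltb*, *Ltbr*, *Cd40*, *Cd40lg*, *Cd27*, *Cd70*, *Ngfr*, *Eda2r* and *Relt*. Both receptors of TNF itself and TRAIL with its receptor were not part of the list. These criteria gave 38 of the 54532 genes counted, namely 15 ligands and 23 receptors. In GRdim/dim mice, all cells of the body have a mutated glucocorticoid receptor (GR) gene, *Nr3c1*, with a single changed residue that disturbs the pairing of receptor molecules. GR+/+ mice were their littermates with the intact receptor, and both genotypes had the mixed background 129/SvEv x C57BL/6 and an age of 10 to 16 weeks. All 6 mice, 3 per genotype, were bled to 35 mmHg of arterial pressure for 1 h and then resuscitated under anesthesia and ventilation for 4 h, so no lung without shock was compared. The sexes were unequal: females were 2 of the GR+/+ mice and 1 of the GRdim/dim mice.

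TNF superfamily ligands are mostly made as membrane proteins that act as trimers, and several are shed as soluble cytokines. Their receptors signal through TRAF adaptors to NF-κB and MAP kinases, and those with a death domain can also start cell death, whereas decoy receptors bind ligand without signaling. In lung the family includes the inflammatory cytokine TNF, the lymphotoxins that organize lymphoid tissue, the costimulatory pairs of T cells, the BAFF and APRIL system of B cells, and the TWEAK and Fn14 pair of injured epithelium and stroma. Glucocorticoids are widely used to restrain inflammatory cytokines of this kind.

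The 6 libraries held 15687734 to 32082940 counts, of which 8876 to 17292 per library fell on the 38 members. No library duplicated another, and libraries of the same genotype differed by more than counting noise. The alveolar type 2 markers (*Sftpc*, *Sftpb*, *Lamp3* and *Abca3*) summed to 13469 to 21826 counts per 1000000 (CPM, scaled by the TMM method), so defining lung markers were present. *Nr3c1* itself was at 138 to 162 CPM in GR+/+ and at 120.2 to 159 CPM in GRdim/dim libraries. A changed residue leaves no trace in gene counts, so these levels do not check the genotype labels.

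No member differed between genotypes at the threshold used for differentially expressed genes (DEGs). edgeR's quasi-likelihood test, adjusted over all 16568 genes with enough reads, called 0 of the 30 members tested, where 0.169% of all tested genes were DEGs (log2 fold change past 0.5 in size and an adjusted *p*-value under 0.05). At an unadjusted *p*-value under 0.05, 2 members were higher in GRdim/dim, namely the decoy receptor gene *Tnfrsf22* and the TACI gene *Tnfrsf13b*, and 0 were lower. Among all tested genes 4.91% were higher and 4.68% lower at that level, so 2 of 30 members, or 6.67%, was close to the background. Both had an unadjusted edgeR *p*-value of 0.107 once sex-linked expression was a covariate. The log2 fold changes were then 0.69 for *Tnfrsf13b* and 0.57 for *Tnfrsf22*, where the fit reported gave 0.80 and 0.69. Both *p*-values were also above 0.05 without GR+/+ replicate 1, GR+/+ replicate 3 or GRdim/dim replicate 1. The same held for *Tnfrsf13b* without GRdim/dim replicate 3 and for *Tnfrsf22* without GR+/+ replicate 2. DESeq2 also called 0 members as DEGs among the 30 with an adjusted *p*-value, where it called 1.7% of the 16150 genes with one. With GRdim/dim higher, its unadjusted *p*-value was under 0.05 for 7 of 38 members (18.4%), against 2.88% of the 31346 genes with one. This share of members was larger than with edgeR. Its background includes genes that edgeR's filter removed for low counts, so the 2 contrasts are not alike. The 7 members were *Ltb*, *Tnfrsf13b*, *Tnfrsf13c*, *Tnfrsf22*, *Tnfrsf26*, *Tnfsf11* and *Tnfsf18*, of which *Tnfsf11* and *Tnfsf18* did not pass edgeR's filter. The smallest adjusted *p*-value of a member was 0.505 with edgeR and 0.376 with DESeq2.

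The log2 fold changes (GRdim/dim minus GR+/+, from edgeR throughout) of the 30 members ranged from −0.44 to 1.32. Their median was 0.18, where that of all tested genes was 0.01, and 20 of the 30 (66.7%) lay above 0 against 50.9% of all tested genes. The median was 0.21 for the 9 ligands tested and 0.15 for the 21 receptors tested. Absence of a call did not mean tight equality. The 95% interval of the log2 fold change stayed within a 2-fold difference in either direction for 13 members (43.3%), compared with 64.6% of all tested genes, and its median half-width was 0.76 for members and 0.55 for all tested genes.

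**Figure D1:**
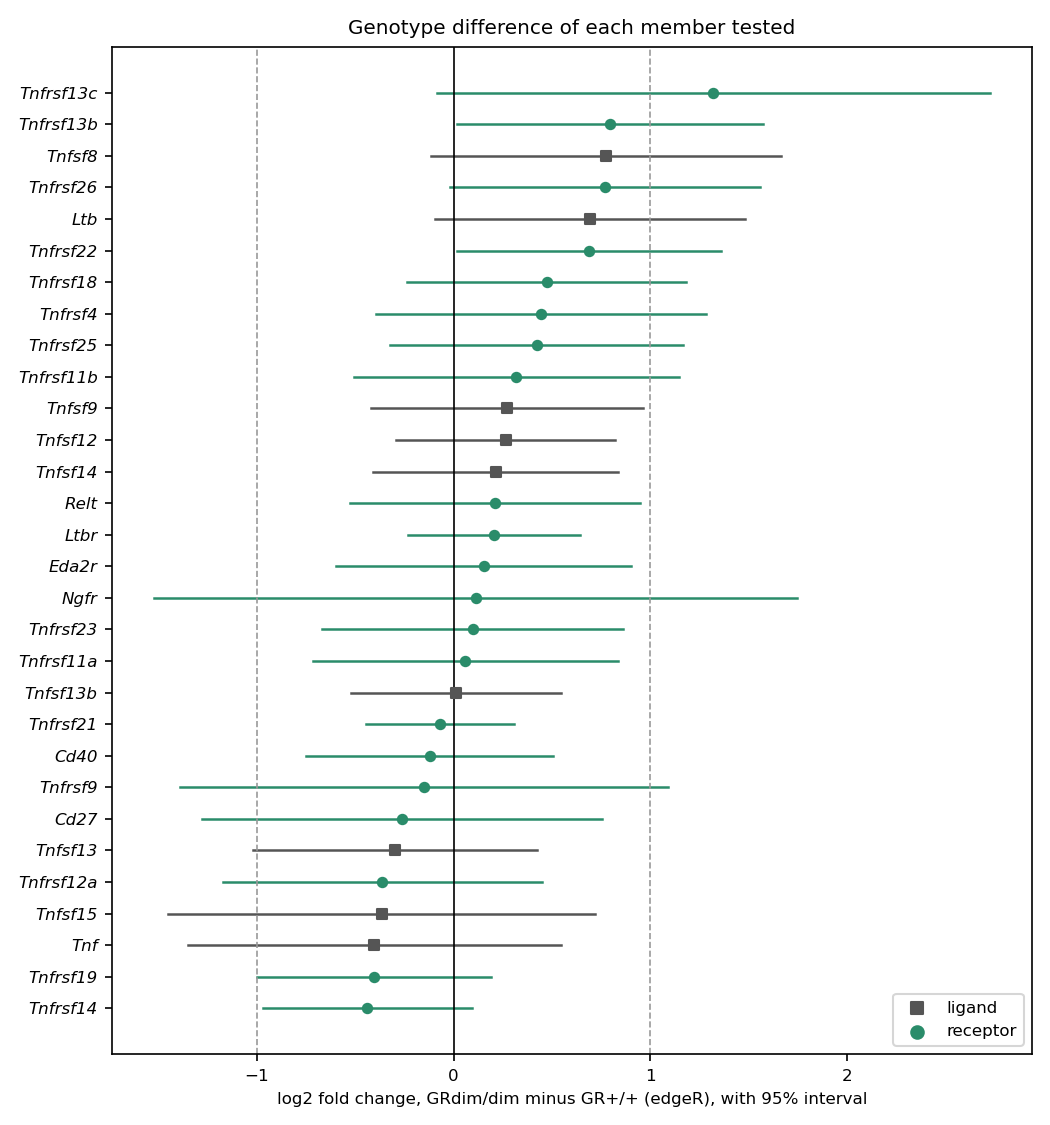
The log2 fold change of each tested member (x axis, GRdim/dim minus GR+/+) is drawn with its 95% interval, squares for ligands and circles for receptors, sorted by value, with dashed lines at a 2-fold difference. The values run from −0.44 for *Tnfrsf14* to 1.32 for *Tnfrsf13c*, and the intervals of *Tnfrsf13b* and *Tnfrsf22* alone start above 0.

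**Figure D2:**
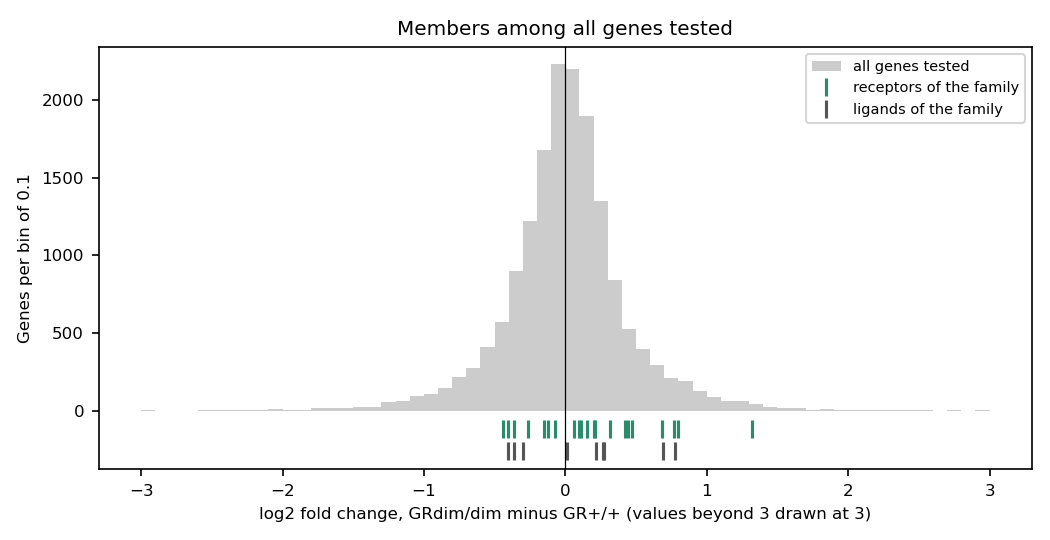
The histogram gives the number of tested genes per bin of log2 fold change (x axis, GRdim/dim minus GR+/+), and the ticks under it mark the 21 receptors and 9 ligands. The ticks lie inside the bulk of all genes, with a median of 0.18 against 0.01.

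Upstream sequences of *Ltb* and *Tnfrsf8* are printed because these windows held a match to the κB consensus, the 10-base motif bound by NF-κB, through which the family signals and by which several members are themselves induced. RefSeq promoter windows (250 bases before to 50 after a start, build GRCm38.p6) were found for 29 of the 38 members, 33 windows in all. On either strand, 4 of the 33 windows (12.1%) held the κB consensus, against 8.46% of 32851 windows of all genes. The other windows with a match belonged to secondary starts of *Tnfrsf25* and *Tnfrsf9*. A core site of the GR dimer (G, any base, ACA, 3 bases, TGT, any base and C, on both strands) was in 0 of the 33 windows and in 0.475% of all windows, which says only that these letters were not in these stretches. The 182 bases before the annotated *Ltb* gene, chr17:35194257-35194438 on the plus strand, and the 250 bases before *Tnfrsf8*, chr4:145315165-145315414 on the minus strand, are given 5′ to 3′ with the matching letters in capitals, where 2 overlapping matches in *Tnfrsf8* form one run of 11 bases.
Ltb: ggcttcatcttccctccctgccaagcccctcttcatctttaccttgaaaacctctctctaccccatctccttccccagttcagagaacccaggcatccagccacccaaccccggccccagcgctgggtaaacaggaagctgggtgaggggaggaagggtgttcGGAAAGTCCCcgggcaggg
Tnfrsf8: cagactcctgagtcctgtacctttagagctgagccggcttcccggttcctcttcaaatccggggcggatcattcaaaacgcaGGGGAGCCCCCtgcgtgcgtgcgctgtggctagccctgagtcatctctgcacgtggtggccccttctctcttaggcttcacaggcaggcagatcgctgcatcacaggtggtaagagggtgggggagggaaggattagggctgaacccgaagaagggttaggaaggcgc

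Among the inflammatory and lymphotoxin ligands, *Tnf* was scarce. It lies with *Lta* and *Ltb* in one cluster on chromosome 17, *Tnf* at chr17:35199381-35202007 (minus strand), with 1158 bases to *Lta* and 3061 to *Ltb*. *Tnf* was at 1.08, 2.34 and 1.78 CPM in GR+/+ replicates 1, 2 and 3 and at 1.02, 1.54 and 1.36 CPM in GRdim/dim replicates 1, 2 and 3, from 18 to 56 counts. The groups overlapped, with means of 1.73 ± 0.633 and 1.31 ± 0.260 CPM (SD, n = 3 each). Its log2 fold change was −0.40 ± 0.43 (SE), with an interval from −1.35 to 0.54 and an edgeR adjusted *p*-value of 0.838. *Lta*, which encodes lymphotoxin α, was too low to be tested, with 1, 5 and 2 counts in GR+/+ and 5, 1 and 9 counts in GRdim/dim libraries. *Ltb*, whose product anchors lymphotoxin at the membrane of lymphocytes, was at 6.04, 12.3 and 7.34 CPM in GR+/+ and at 8.14, 15.4 and 18.0 CPM in GRdim/dim libraries. GRdim/dim replicate 1 and GR+/+ replicate 2 overlapped, and the log2 fold change was 0.69 ± 0.35 (SE, interval −0.09 to 1.48, edgeR adjusted *p* = 0.585). *Tnfsf14*, the LIGHT gene, whose product binds the lymphotoxin β receptor and HVEM, was at 6.81, 5.28 and 4.48 CPM in GR+/+ and at 6.63, 5.52 and 7.04 CPM in GRdim/dim libraries. These groups overlapped too (log2 fold change 0.21 ± 0.28, SE, edgeR adjusted *p* = 0.882). *Tnfsf15*, which encodes TL1A and was named after its values were seen, had 9 to 64 counts and an edgeR adjusted *p*-value of 0.888.

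Costimulatory ligands of antigen-presenting cells and activated lymphocytes were mostly near the detection limit, and 2 of the 6 were tested. *Tnfsf8*, which encodes the CD30 ligand (chr4:63831308-63861347, minus strand), was at 2.03, 2.22 and 1.21 CPM in GR+/+ and at 4.26, 2.28 and 2.71 CPM in GRdim/dim libraries. All GRdim/dim libraries lay above all GR+/+ libraries, although GRdim/dim replicate 2 and GR+/+ replicate 2 were almost level. The log2 fold change was 0.77 ± 0.40 (SE, interval −0.11 to 1.66), the edgeR adjusted *p*-value 0.586, and the two-sided exact permutation *p*-value 0.1, the smallest that 3 against 3 libraries allow. Of the 30 tested members, 2 had no overlap with GRdim/dim higher (*Tnfsf8* and *Tnfrsf22*, 6.67%) and 0 with GRdim/dim lower, against 7.77% and 7.05% of all tested genes. *Tnfsf9*, the ligand of the receptor CD137, was at 5.20, 5.04 and 6.92 CPM in GR+/+ and at 5.61, 5.57 and 9.69 CPM in GRdim/dim libraries. It overlapped between genotypes (log2 fold change 0.27 ± 0.31, SE, edgeR adjusted *p* = 0.856), and 14.9% of its exon bases also lie in a noncoding gene on the opposite strand.

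The remaining costimulatory ligands did not pass the filter. *Tnfsf18*, which encodes the GITR ligand, an endothelial and myeloid costimulator of T cells (chr1:161494655-161505290, plus strand), had 2, 0 and 3 counts in GR+/+ and 10, 5 and 14 counts in GRdim/dim libraries. All GRdim/dim libraries were above all GR+/+ libraries (0.208 to 0.904 against 0 to 0.12 CPM; two-sided exact permutation *p* = 0.1). When the filter was left off, edgeR gave an unadjusted *p*-value of 0.0109 and an adjusted one of 0.275 for *Tnfsf18*. *Cd40lg*, made by activated T helper cells, had 4 to 31 counts with overlapping groups. *Cd70* had 1 count in all, and *Tnfsf4*, which encodes the OX40 ligand, 1 count in GR+/+ and 4 in GRdim/dim libraries, each from a single library. A count of 0 allows up to 3 counts in that library, so *Cd70* and *Tnfsf4* were below what this depth can compare.

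Neither B cell survival ligand gene, counted alone, separated the genotypes. *Tnfsf13b*, the BAFF gene (chr8:10006467-10039072, plus strand), was at 11.3, 18.0 and 15.4 CPM in GR+/+ and at 17.3, 14.8 and 13.1 CPM in GRdim/dim libraries. Its means of 14.9 ± 3.40 and 15.1 ± 2.11 CPM (SD, n = 3 each) gave a log2 fold change of 0.01 ± 0.24 (SE, edgeR adjusted *p* = 0.994). The interval from −0.52 to 0.55 lay inside a 2-fold difference. *Tnfsf13*, the APRIL gene, was at 6.10, 4.50 and 5.59 CPM in GR+/+ and at 2.97, 4.36 and 5.88 CPM in GRdim/dim libraries, with overlapping groups (log2 fold change −0.30 ± 0.32, SE, edgeR adjusted *p* = 0.847). *Tnfsf13* and *Tnfsf12* stand 466 bases apart on chromosome 11, and the readthrough gene *Tnfsfm13* covers 60.1% of the exon bases of *Tnfsf13* and 48.3% of those of *Tnfsf12* on the same strand. How reads were assigned among the 3 genes is not given in the sources used here, so the values of both ligands are uncertain to that degree. *Tnfsfm13* itself, looked at after its counts were seen, was at 4.06, 5.22 and 3.14 CPM in GR+/+ and at 2.21, 1.74 and 2.78 CPM in GRdim/dim libraries (log2 fold change −0.88 ± 0.35, SE, edgeR adjusted *p* = 0.456). Added to *Tnfsf13* it gave 10.2, 9.71 and 8.74 CPM in GR+/+ and 5.18, 6.11 and 8.65 CPM in GRdim/dim libraries, without overlap but with replicate 3 of both almost level (two-sided exact permutation *p* = 0.1). The sum of all 3 genes overlapped, at 27.95 to 34.4 and 23.1 to 43.3 CPM (two-sided exact permutation *p* = 0.9).

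*Tnfsf12*, the TWEAK gene, was the most abundant ligand per length, with means of 14.6 and 17.5 CPM per kilobase in GR+/+ and GRdim/dim. It was at 22.4, 24.6 and 19.2 CPM in GR+/+ and at 17.9, 27.0 and 34.6 CPM in GRdim/dim libraries. GRdim/dim libraries held both the lowest and the highest value (log2 fold change 0.27 ± 0.25, SE; interval −0.29 to 0.82, edgeR adjusted *p* = 0.814). *Tnfsf11*, which encodes RANKL, did not pass the filter, with 2, 4 and 9 counts in GR+/+ and 5, 33 and 11 counts in GRdim/dim libraries. GRdim/dim replicate 1 overlapped the GR+/+ range of *Tnfsf11* in CPM, and the unfiltered edgeR fit gave an unadjusted *p*-value of 0.0218 and an adjusted one of 0.395.

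**Figure D3:**
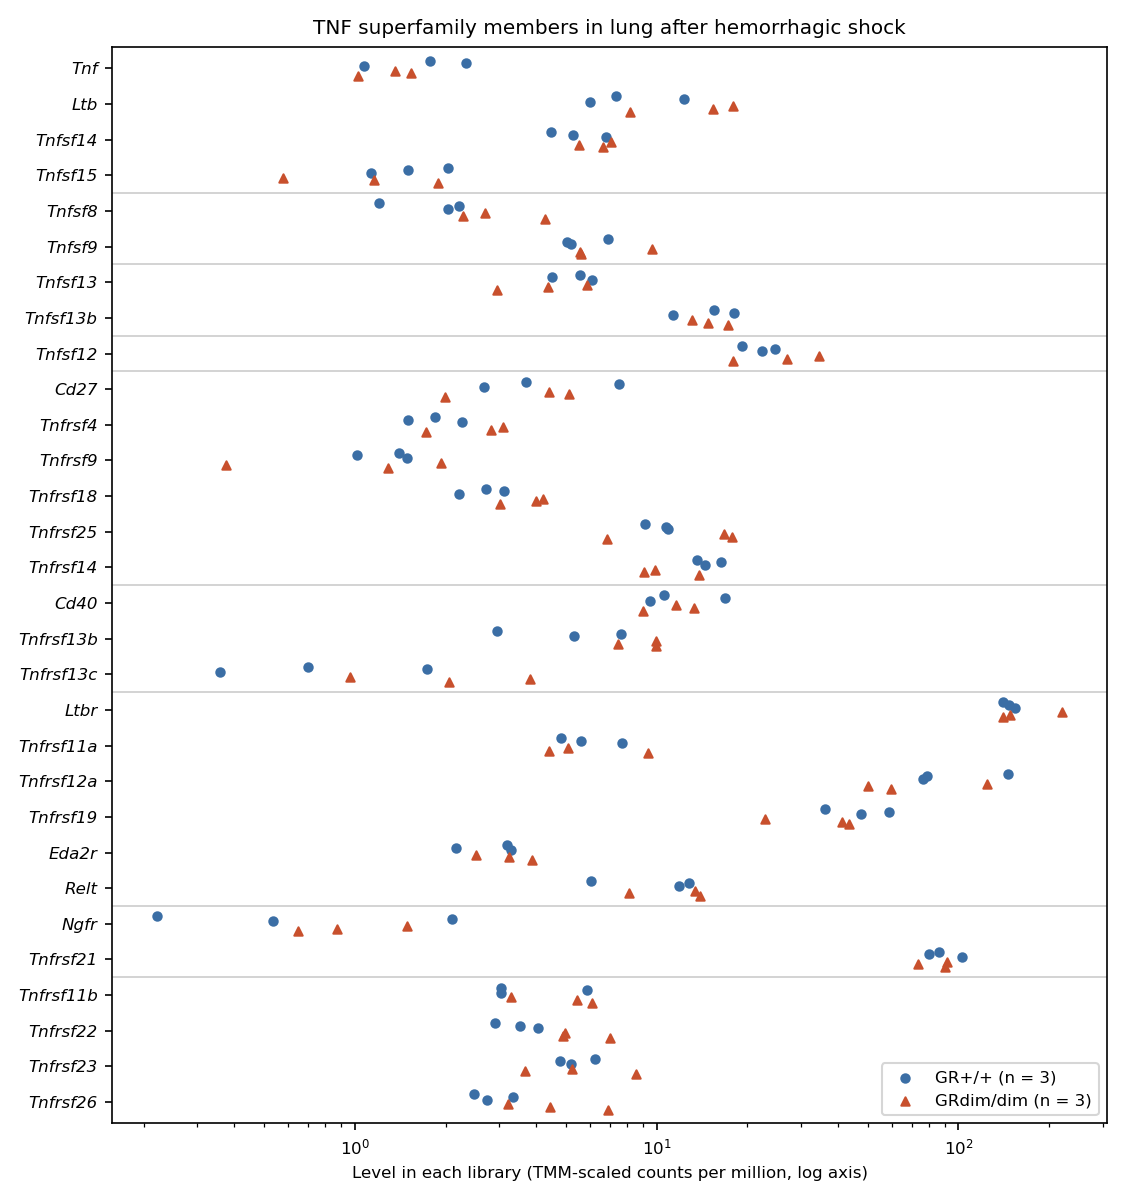
Each row is a tested member, ligands first and then receptors, and each point a library (x axis, TMM-scaled CPM on a log axis; circles GR+/+, triangles GRdim/dim, 3 each), with gray lines between role groups. The points of the genotypes overlap in every member but *Tnfsf8* and *Tnfrsf22*, and *Ltbr*, at 141 to 219.8 CPM, is at the right end.

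Among the tested members, *Tnfrsf13c* and *Tnfrsf13b*, which serve B cells, had the highest log2 fold changes, neither of which passed the adjusted test. *Tnfrsf13b*, the TACI gene (chr11:61126755-61149372, plus strand), whose product binds BAFF and APRIL on B cells and plasma cells, was at 5.32, 7.61 and 2.95 CPM in GR+/+ and at 9.97, 7.48 and 9.95 CPM in GRdim/dim libraries. GRdim/dim replicate 2 lay just under GR+/+ replicate 2, so the groups overlapped by this pair. Means were 5.30 ± 2.33 and 9.13 ± 1.43 CPM (SD, n = 3 each). The log2 fold change was 0.80 ± 0.35 (SE, interval 0.02 to 1.57), with an unadjusted edgeR *p*-value of 0.0460 and an adjusted one of 0.505. *Tnfrsf13c*, which encodes the BAFF receptor needed by mature B cells, was at 0.359, 1.74 and 0.699 CPM in GR+/+ and at 2.05, 3.82 and 0.969 CPM in GRdim/dim libraries. GR+/+ replicate 2 was above GRdim/dim replicate 3, and a log2 fold change of 1.32 ± 0.63 (SE) came with an interval from −0.09 to 2.73 (edgeR adjusted *p* = 0.555). *Tnfrsf17*, the BCMA gene of plasma cells, had 0 to 7 counts per library and was not tested. *Cd40*, the receptor of B cells and antigen-presenting cells for T cell help (chr2:165055627-165072948, plus strand), was at 9.50, 16.9 and 10.5 CPM in GR+/+ and at 9.0, 13.3 and 11.6 CPM in GRdim/dim libraries. *Cd40* overlapped between genotypes (log2 fold change −0.12 ± 0.28, SE; interval −0.75 to 0.51, edgeR adjusted *p* = 0.945).

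The summed levels of B, T, NK and dendritic cell markers also had higher means in GRdim/dim. The 5 B cell markers (*Cd79a*, *Cd79b*, *Ms4a1*, *Cd22* and *Pax5*) summed to 21.5 to 46.5 CPM in GR+/+ and to 45.8 to 67.2 CPM in GRdim/dim libraries, which overlap by GR+/+ replicate 2 and GRdim/dim replicate 1. All 5 had log2 fold changes above 0, with a median of 0.83, but 0 were DEGs and none was at 0 in all libraries. Of the 5 markers, 3 had an unadjusted edgeR *p*-value under 0.05 with GRdim/dim higher, against 4.91% of all tested genes. Markers of a cell type can vary together, so such counts within a list are not independent results. Of the GR+/+ libraries, replicate 2 had the highest level of *Tnfrsf13b*, *Tnfrsf13c*, *Ltb* and *Cd27* and also of the summed B cell markers, 46.5 against 21.5 and 24.2 CPM. The GRdim/dim libraries did not repeat this order for all 4 genes. There replicate 2 had the highest B cell sum, 67.2 against 45.8 and 53.5 CPM, and the highest *Tnfrsf13c* and *Cd27*. It had the lowest *Tnfrsf13b*, however, and *Ltb* was highest in GRdim/dim replicate 3. The 7 T cell markers summed to 15.5 to 31.7 CPM in GR+/+ and to 34.0 to 43.7 CPM in GRdim/dim libraries. Of them 3 had an unadjusted edgeR *p*-value under 0.05, and the log2 fold changes ran from 0.14 for *Cd8b1* to 1.32 for *Trac*. The 3 regulatory T cell markers summed to 6.57 to 10.4 and 8.27 to 11.3 CPM with overlap, *Ctla4* at a log2 fold change of 1.72, *Foxp3* at 0.17 and *Ikzf2* at −0.30 (edgeR adjusted *p* = 0.244, 0.948 and 0.814). Of the 4 plasma cell markers, *Sdc1* and *Xbp1* are widely expressed in epithelium, and the more specific *Jchain* and *Mzb1* together were at 13.7, 17.0 and 25.0 CPM in GR+/+ and at 14.9, 50.1 and 56.9 CPM in GRdim/dim libraries. The 4 NK cell markers had a median log2 fold change of 1.29 with 2 at an unadjusted *p*-value under 0.05 (sums of 2.21 to 7.91 and 7.68 to 15.0 CPM), and the 6 dendritic cell markers one of 0.80 with 3 (57.8 to 90.1 and 67.5 to 109.7 CPM), and neither list held a DEG. *Clec9a*, the most abundant dendritic cell marker, had a log2 fold change of −0.35 (edgeR adjusted *p* = 0.809). The 6 alveolar macrophage markers had a median of −0.16 and overlapping sums of 446 to 552 and 431 to 566 CPM. Of them 3 lay above 0 and 3 below, with 1 higher and 1 lower at an unadjusted edgeR *p*-value under 0.05. These were *Car4*, higher with overlap (0.72, edgeR adjusted *p* = 0.398), and *Chil3*, lower without overlap (−0.88, edgeR adjusted *p* = 0.202). In whole lung, more cells of a type and more RNA per cell cannot be told apart, and the part of immune cell numbers in the values of *Tnfrsf13b*, *Tnfrsf13c* and *Ltb* was not tested.

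**Figure D4:**
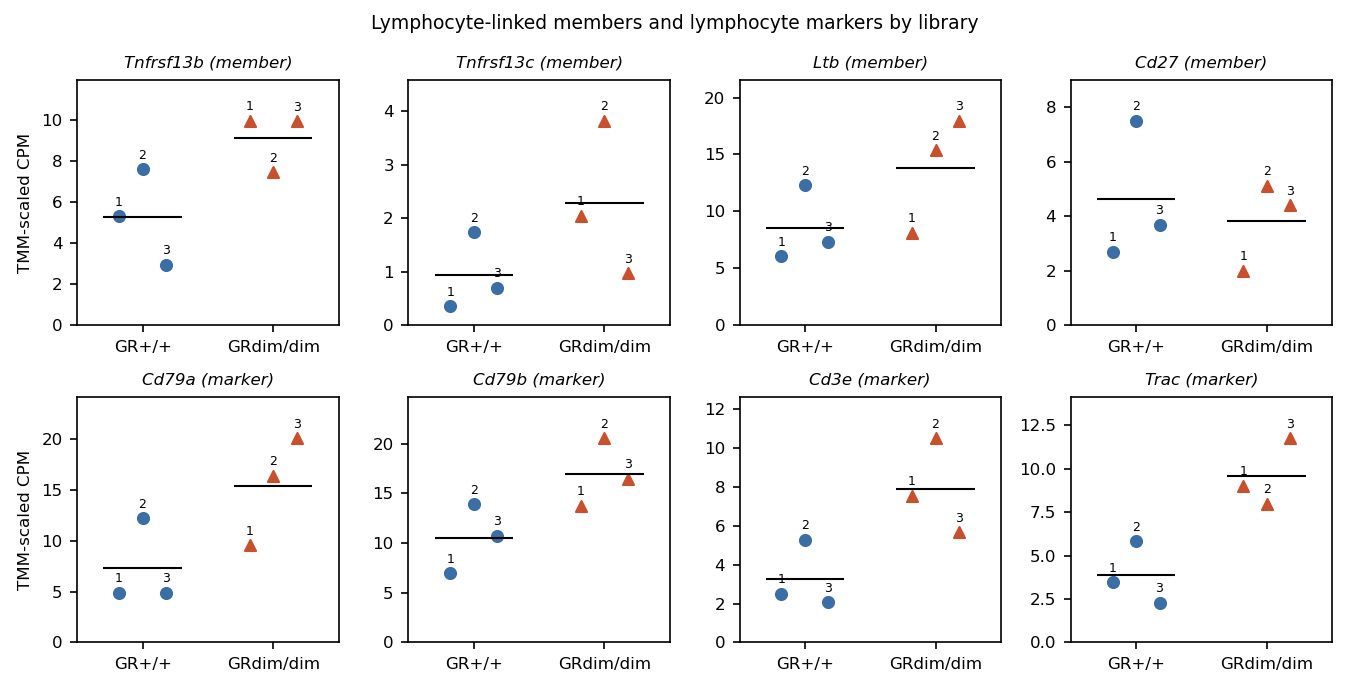
TMM-scaled CPM (y axis) is shown for each library, numbered by replicate, with a line at the mean of 3 libraries per genotype. The top row has 4 lymphocyte-linked members, and the bottom row the B cell markers *Cd79a* and *Cd79b* and the T cell markers *Cd3e* and *Trac*. *Cd3e* and *Trac* had the largest log2 fold changes of the T cell markers (1.29 and 1.32), and *Cd8b1*, not drawn, the smallest (0.14). GR+/+ replicate 2 is the highest GR+/+ library in each panel, whereas no GRdim/dim library is the highest of its genotype in every panel. *Tnfrsf13b* overlaps between genotypes by replicate 2 of each (7.61 and 7.48 CPM).

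Among costimulatory receptors of T cells, 6 of 7 were tested and 0 had an unadjusted edgeR *p*-value under 0.05. Of all tested genes 4.91% were higher and 4.68% lower at that level, and 6 genes are too few to compare with that background. *Tnfrsf14*, the HVEM gene, which binds LIGHT and the inhibitory receptor BTLA (chr4:154921933-154928563, minus strand), had the lowest log2 fold change of the tested members. It was at 14.5, 16.3 and 13.7 CPM in GR+/+ and at 13.8, 9.10 and 9.88 CPM in GRdim/dim libraries. GRdim/dim replicate 1 lay between the GR+/+ values, the other two below them, and the log2 fold change was −0.44 ± 0.24 (SE, interval −0.97 to 0.09, edgeR adjusted *p* = 0.615). *Tnfrsf8*, the CD30 gene and receptor of the *Tnfsf8* product, was not tested, with 1, 3 and 6 counts in GR+/+ and 15, 10 and 4 counts in GRdim/dim libraries. In CPM, all GRdim/dim libraries were above all GR+/+ libraries (0.258 to 0.809 against 0.0598 to 0.191 CPM; two-sided exact permutation *p* = 0.1), and without a filter edgeR gave an adjusted *p*-value of 0.640. *Tnfsf18* and *Tnfrsf8* were thus 2 of the 8 untested members with GRdim/dim higher and no overlap, against 2.12% of all untested genes with counts. Among these members 0 were lower without overlap, against 4.06% of those genes. The 2 shares cover every untested gene with at least 1 count. A gene without counts in each GRdim/dim library cannot be higher without overlap, so 2.12% is not a like background for these members. For the CD30 pair the nearest libraries of the 2 genotypes were at 2.28 and 2.22 CPM (*Tnfsf8*) and at 0.258 and 0.191 CPM (*Tnfrsf8*). Whether ligand and receptor change together was not tested. The other tested receptors of this group, *Cd27*, *Tnfrsf4* (OX40), *Tnfrsf9* (CD137), *Tnfrsf18* (GITR) and *Tnfrsf25* (DR3, which has a death domain), all had overlapping groups. Their log2 fold changes ran from −0.26 for *Cd27* to 0.47 for *Tnfrsf18*, with edgeR adjusted *p*-values from 0.710 to 0.968. In *Tnfrsf18*, 27.2% of exon bases also lie in an antisense gene, and the use of strand in counting is not given in the sources used here.

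Other signaling receptors without a death domain act in varied tissues and cells, and *Ltbr* and *Tnfrsf12a* among them had the highest levels per length in the family. *Ltbr*, which encodes the lymphotoxin β receptor of stromal and epithelial cells (chr6:125306571-125313885, minus strand), led the family per length with 62.4 and 71.9 CPM per kilobase in GR+/+ and GRdim/dim. It was at 153, 147 and 141 CPM in GR+/+ and at 141, 148 and 219.8 CPM in GRdim/dim libraries. GRdim/dim replicate 3 alone stood above the rest, and the log2 fold change of *Ltbr* was 0.20 ± 0.20 (SE, interval −0.23 to 0.64, edgeR adjusted *p* = 0.821). *Tnfrsf12a*, the Fn14 gene, an injury-induced receptor for TWEAK (chr17:23675445-23677468, minus strand), was at 76.5, 78.4 and 146 CPM in GR+/+ and at 59.8, 50.1 and 124 CPM in GRdim/dim libraries. Replicate 3 was the highest library in each genotype, and the spread within a genotype was larger than the difference between the means of 100.2 ± 39.5 and 78.1 ± 40.4 CPM (SD, n = 3 each). The log2 fold change was −0.36 ± 0.36 (SE, edgeR adjusted *p* = 0.826). *Tnfrsf19*, the TROY gene of epithelial progenitors, was at 47.7, 58.8 and 36.1 CPM in GR+/+ and at 43.5, 41.2 and 22.9 CPM in GRdim/dim libraries. Here replicate 3 was the lowest library in each genotype, and the groups overlapped (log2 fold change −0.40 ± 0.27, SE; interval −1.0 to 0.19, edgeR adjusted *p* = 0.706). *Tnfrsf11a* (RANK), *Eda2r* and *Relt*, named after their values were seen, had log2 fold changes of 0.06, 0.15 and 0.21 with edgeR adjusted *p*-values of 0.978, 0.942 and 0.915.

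*Tnfrsf21*, which encodes the death receptor DR6, was the most evenly measured member. It was at 102, 80.0 and 85.9 CPM in GR+/+ and at 90.4, 73.6 and 91.4 CPM in GRdim/dim libraries. The genotypes overlapped, and the log2 fold change of −0.07 ± 0.17 (SE) had the narrowest interval of the tested members, from −0.45 to 0.31 (edgeR adjusted *p* = 0.946). *Ngfr*, the neurotrophin receptor gene of nerves, which also encodes a death domain, was at 0.222 to 2.10 CPM and had the widest interval, from −1.52 to 1.75.

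The decoy receptors, grouped with *Tnfrsf26*, the neighbor of *Tnfrsf22*, all had log2 fold changes above 0, with a median of 0.50, where 50.9% of all tested genes were above 0, and 1 of 4 had an unadjusted *p*-value under 0.05, against 4.91% of all tested genes. These 4 genes include near copies and are too few to compare with that background. *Tnfrsf22*, *Tnfrsf23* and *Tnfrsf26* lie side by side on chromosome 7, with 6084 bases between *Tnfrsf26* and *Tnfrsf22* and 16148 between *Tnfrsf22* and *Tnfrsf23*. *Tnfrsf22*, a receptor that binds TRAIL without a death domain (chr7:143634806-143649661, minus strand), was at 4.06, 3.54 and 2.92 CPM in GR+/+ and at 7.01, 4.90 and 4.97 CPM in GRdim/dim libraries. Each GRdim/dim library was above each GR+/+ library, with means of 3.51 ± 0.571 and 5.63 ± 1.2 CPM (SD, n = 3 each) and a two-sided exact permutation *p*-value of 0.1. Its log2 fold change was 0.69 ± 0.30 (SE, interval 0.02 to 1.36), with an unadjusted edgeR *p*-value of 0.0459 and an adjusted one of 0.505. Of the 31-base windows of its transcripts, 38.3% also occur in other genes and 25.5% in *Tnfrsf23*, so reads could be split between these copies. *Tnfrsf23* was at 5.20, 4.80 and 6.26 CPM in GR+/+ and at 8.57, 3.66 and 5.23 CPM in GRdim/dim libraries, with both extremes in GRdim/dim (log2 fold change 0.10 ± 0.34, SE, edgeR adjusted *p* = 0.967). The sum of *Tnfrsf22* and *Tnfrsf23*, which does not depend on how reads are divided between them, was 9.26, 8.33 and 9.18 CPM in GR+/+ and 15.6, 8.56 and 10.2 CPM in GRdim/dim libraries. These sums overlapped (two-sided exact permutation *p* = 0.3). *Tnfrsf26* was at 2.75, 3.36 and 2.48 CPM in GR+/+ and at 6.90, 4.44 and 3.23 CPM in GRdim/dim libraries, overlapping by GRdim/dim replicate 3 (log2 fold change 0.77 ± 0.36, SE; interval −0.02 to 1.56, edgeR adjusted *p* = 0.536). *Tnfrsf11b*, the osteoprotegerin gene, whose product captures RANKL, had a log2 fold change of 0.32 ± 0.37 (SE, edgeR adjusted *p* = 0.859). *Tnfrsf23*, *Tnfrsf26* and *Tnfrsf11b* were named after their values were seen. GRdim/dim replicate 1 held the highest value of all 4 genes of this group.

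Ligands and receptors of a pair were often present at unequal levels. Per length, *Ltbr* at 62.4 CPM per kilobase in GR+/+ exceeded its ligand genes *Ltb* at 5.64, *Tnfsf14* at 2.99 and *Lta* at 0.102 CPM per kilobase. *Tnfrsf12a*, at 51.9 CPM per kilobase in GR+/+, likewise exceeded *Tnfsf12* at 14.6. The order was the opposite for *Tnfsf9*, at 4.43 CPM per kilobase in GR+/+ against 0.479 for its receptor gene *Tnfrsf9*, and for *Tnfsf8*, at 0.478 against 0.0415 for *Tnfrsf8*. *Tnfsf13b* was at 2.17 CPM per kilobase in GR+/+ and 2.19 in GRdim/dim, while its receptor genes *Tnfrsf13b* and *Tnfrsf13c* were at 1.87 and 0.455 in GR+/+ and at 3.22 and 1.11 in GRdim/dim. For these named members no difference between genotypes passed the adjusted test.

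**Figure D5:**
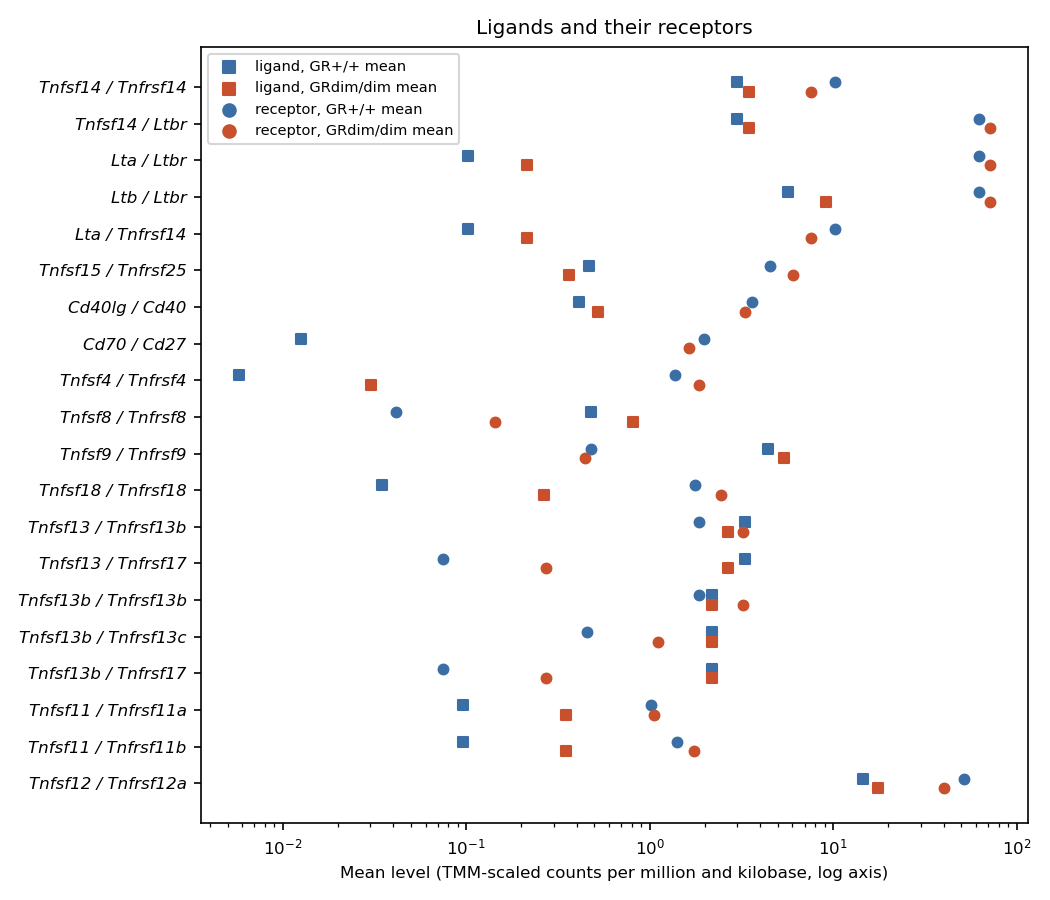
Mean level per length (x axis, TMM-scaled CPM per kilobase, log axis) is drawn for the ligand (square) and the receptor (circle) of each pair, blue for GR+/+ and red for GRdim/dim (3 libraries each); *Cd70* in GRdim/dim is at 0 and cannot be drawn. *Ltbr*, at 62.4 and 71.9, is at the right end, and *Tnfsf9* and *Tnfsf8* lie to the right of their receptors.

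Signaling genes downstream of the receptors were measured with more counts and smaller errors. The list of 33 genes covered TRAF proteins, receptor-proximal adaptors and kinases, inhibitor of apoptosis ligases, and linear ubiquitin and deubiquitinating enzymes. It also held genes of noncanonical NF-κB, the TNF sheddase ADAM17 and the inhibitory chaperone BAG4. All 33 were tested and 0 were DEGs. At an unadjusted edgeR *p*-value under 0.05, 1 of the 33 (3.03%) was higher in GRdim/dim and 0 were lower, against 4.91% and 4.68% of all tested genes. Their median log2 fold change was 0.03 with a range from −0.26 to 0.49, and for 32 of 33 (97%) the 95% interval lay inside a 2-fold difference. *Birc2*, which encodes cIAP1, a ubiquitin ligase recruited to TNF receptors by TRAF2, was at 61.6, 70.6 and 63.3 CPM in GR+/+ and at 81.4, 92.3 and 75.6 CPM in GRdim/dim libraries. Every GRdim/dim library was above every GR+/+ library, and the log2 fold change was 0.35 ± 0.16 (SE), with an unadjusted edgeR *p*-value of 0.0496 and an adjusted one of 0.520. *Traf5*, an adaptor of several costimulatory receptors, also did not overlap, with 10.8 to 15.9 CPM in GR+/+ and 17.1 to 19.2 CPM in GRdim/dim libraries (edgeR adjusted *p* = 0.528). In the other direction, *Traf1* at 100.7 to 128 against 89.2 to 97.3 CPM and *Tnfaip3*, the gene of the NF-κB inhibitor A20, at 45.4 to 53.7 against 43.0 to 45.4 CPM did not overlap (edgeR adjusted *p* = 0.673 and 0.764). These 3 were named after their values were seen. The counts without overlap, 2 of 33 (6.06%) in each direction, were close to the 7.77% and 7.05% of all tested genes.

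Across the 30 tested members, the highest value fell in GRdim/dim replicate 1 for 9, in GRdim/dim replicate 3 for 8 and in GR+/+ replicate 2 for 7, with 2 in each of the other libraries. The lowest value fell in GR+/+ replicate 3 and GRdim/dim replicate 1 for 7 members each, against 19.8% and 18.6% of all tested genes. Over all tested genes, the libraries in the order first named held the highest value in 18.8%, 23% and 11.8%. Markers of neutrophils, another source of family transcripts, summed to 231 to 451 CPM in GR+/+ and to 317 to 1031 CPM in GRdim/dim libraries, with the highest sum in GRdim/dim replicate 1, and those of monocytes to 204 to 355 and 428 to 1081 CPM. *Nr4a1*, also an early-response gene, was the largest part of the monocyte sum in every library but GR+/+ replicate 2 (73.1 CPM, against 110.1 for *Ccr2*). Leaving *Nr4a1* out was a choice made after its values were seen. The other 4 markers then summed to 100.2, 130.5 and 72.9 CPM in GR+/+ and 153, 89.4 and 93.5 CPM in GRdim/dim libraries, with overlap. Of all markers in these lists, 2 of 5 tested in each list had an unadjusted edgeR *p*-value under 0.05 with GRdim/dim higher. The share of all tested genes was 4.91%. No marker in these lists was a DEG or was at 0 in all libraries. Their part in the values of the members was not tested.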

How the data were processed

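Lung RNA was poly(A)-captured and sequenced by a commercial provider as one library per mouse. The authors deposited raw read counts per Ensembl gene, without normalization or pooling. Their processing notes name the build mm10 and DESeq2, while the aligner, the counter and the use of strand are not given in the sources used here. Genotypes and replicate numbers come from the labels, which do not tie a sex to a library. All 38 members had identical coordinates in GENCODE M21.

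Counts were tested in edgeR 4.0.16 under R 4.3.3, with TMM factors, filterByExpr and the robust quasi-likelihood test, and *p*-values were adjusted by Benjamini-Hochberg over 16568 genes. CPM are TMM-scaled, and per kilobase values divide by the gene length deposited. Permutation tests enumerated the 10 splits of 6 libraries. Library totals were 16638859, 16361747 and 32082940 in GR+/+ and 18308562, 24444604 and 15687734 in GRdim/dim replicates 1, 2 and 3, and counting error matters most for low members. Scripts were tested on simulated counts. Alternatives were DESeq2 1.42.0, RLE scaling, other filters, a replicate block, a term for the ratio of *Xist* to Y-linked genes, no fold threshold, each library left out and, chosen after seeing the data, edgeR's likelihood-ratio test.

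Members and lists were chosen with earlier results of these data known. Values are given for every member with an unadjusted *p*-value under 0.05 or without overlap, for *Tnf*, *Lta*, *Ltb*, *Cd40*, *Ltbr*, *Tnfsf13b* and *Tnfrsf13c*, and for the 5 ligands and 5 receptors most abundant per length; *Cd27* is shown as a lymphocyte gene. Of the pathway list, genes with an unadjusted *p*-value under 0.05 are named. One B cell marker is not reported here and is left out of the summed levels.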

Additional observations from a re-analysis of the deposited data

How the results depend on the processing

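No member was a DEG under any alternative, and none of the 17 named members tested had an adjusted *p*-value under 0.05 in any of them. DESeq2 gave no adjusted *p*-value to the 8 members that did not pass edgeR's filter, so it could not call those. The number of members higher in GRdim/dim at an unadjusted *p*-value under 0.05 was 2 of 30 in the fit reported (4.91% of all tested genes). Without a filter on low counts it was 6 of 38 (4% of all genes), with *Ltb*, *Tnfrsf13c*, *Tnfrsf26*, *Tnfsf11* and *Tnfsf18* gained and *Tnfrsf22* lost. It was 7 of 38 with DESeq2 (2.88%). The shares of 4% and 2.88% include genes that did not pass the filter of the fit reported, unlike the 4.91%. The number was 1 to 4 when single libraries were left out (3.57% to 5.53%). The value of 1 came without GR+/+ replicate 1 (*Tnfsf18*) or 3 (*Tnfsf11*), and the value of 4 without GR+/+ replicate 2. The number lower was 0, and 0 to 1 when single libraries were left out (*Tnfrsf14* without GRdim/dim replicate 1 and *Tnfrsf12a* without GRdim/dim replicate 3, with 3.31% to 5.98% of all genes lower). Libraries with the same replicate number had correlations of 0.218, 0.0361 and −0.0548 across genes, and those with unequal numbers −0.266 to 0.194. Only the first was above that range, so the numbers were not taken to pair mice. With a replicate block 4 of 30 members were higher (*Ltb*, *Tnfrsf13b*, *Tnfrsf13c* and *Tnfrsf22*) and 2 lower (*Tnfrsf12a* and *Tnfrsf19*). The shares of all genes were 5.16% and 5.23%. The median log2 fold change of the members was 0.11 to 0.26 when single libraries were left out. With the *Xist* term as a covariate *Tnfrsf13b* and *Tnfrsf22* had unadjusted edgeR *p*-values of 0.107 each. Their log2 fold changes were then 0.69 and 0.57, where the fit reported gave 0.80 and 0.69. The 2 members higher and under 0.05 with this covariate were *Ltb* and *Tnfrsf13c* (4.14% of all genes). *Cd40* turned from −0.12 to 0.047, and the cause of these changes was not tested. Leaving out single libraries gave log2 fold changes of −0.27 to 0.18 for *Cd40*, −0.028 to 0.33 for *Ltbr*, −0.15 to 0.17 for *Tnfsf13b*, −0.038 to 0.44 for *Tnfsf9*, −0.87 to 0.010 for *Tnfrsf12a* and −0.14 to 0.042 for *Tnfrsf21*. The other 11 named members kept their direction throughout, *Tnfrsf13c* at 0.72 (without GRdim/dim replicate 2) to 2.07 (without GR+/+ replicate 2), *Tnfrsf13b* at 0.50 to 1.16, *Tnfrsf22* at 0.50 to 0.81, *Ltb* at 0.47 to 1.05, *Tnfsf12* at 0.030 to 0.49, *Tnfsf8* at 0.48 to 0.96, *Tnfsf14* at 0.080 to 0.40, *Tnf* at −0.64 to −0.14, *Tnfsf13* at −0.55 to −0.073, *Tnfrsf14* at −0.63 to −0.32 and *Tnfrsf19* at −0.57 to −0.16. The 8 untested members did not pass the filter in the fit reported, so any comparison of them rests on few counts. What set the width of the intervals of the tested members was not examined.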
